A study of Rattus norvegicus with 6 samples.

Results

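The class I and II histone deacetylases are the zinc-dependent enzymes encoded by Hdac1 to Hdac10. They were taken by symbol from a table of expression in rat primary astrocytes, and all 10 were found among its 22608 gene symbols. Poly(A) RNA was sequenced from 3 libraries of astrocytes treated with β-hydroxybutyrate (BHB), a ketone body that the liver releases during fasting, and from 3 libraries of control astrocytes. The labels give brain as the tissue and primary astrocytes as the cells of both groups. The column names of the table give the BHB dose as 2 mM, while the sources used here give neither the duration of treatment nor the vehicle, strain or age of the animals. No label states that libraries of a group are separate cultures, so the p-values rest on a spread between samples that may be only technical.

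Histone deacetylases remove acetyl groups from lysines of histones and of other proteins, and in chromatin this usually goes with lower transcription. Class I (Hdac1, Hdac2, Hdac3 and Hdac8) is mainly nuclear, and its first 3 members work inside corepressor complexes such as NuRD, SIN3, CoREST and NCoR. Class IIa (Hdac4, Hdac5, Hdac7 and Hdac9) binds MEF2 transcription factors and moves between nucleus and cytoplasm when kinases phosphorylate it and 14-3-3 proteins hold it, while class IIb (Hdac6 and Hdac10) acts largely in the cytoplasm. BHB has been described as an inhibitor of class I enzymes. FPKM, the fragments of a gene scaled by transcript length and by the mapped fragments of the library, measures mRNA, and the table holds no value for protein, enzyme activity or histone acetylation.

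No deacetylase passed the test for a difference between BHB and control. Values were tested as log2(FPKM + 1) with limma over the 12373 genes that reached 1 FPKM in at least 3 of the 6 libraries, with Benjamini-Hochberg adjustment and a threshold of 0.05. All 10 members were tested and 0 were called, where 7 of all genes tested (0.0566%) were. At an unadjusted p under 0.05 there was 1 member, Hdac5, where 5.59% of all genes tested fell under it. Log2 fold changes (BHB over control) ran from -0.12 to 0.15, with 5 above and 5 below 0, where 51.5% of all genes tested lay above 0. Their median was 0.01, against 0.00289 over all genes tested. Every adjusted p lay between 0.881 and 0.998.

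Levels differed widely between members, while the ratio of mean FPKM between treatments stayed between 0.883 and 1.12. Averaged over the 6 libraries, Hdac2 was the most abundant at 76.6 FPKM and Hdac9 the least at 2.12 FPKM, a ratio of 36.1. The order by mean FPKM was Hdac2, Hdac1, Hdac3, Hdac5, Hdac7, Hdac6, Hdac4, Hdac8, Hdac10 and Hdac9. In the first 6 places each gene's lowest library lay above the highest library of the next gene. The lower neighbours overlapped, Hdac4 (3.67 to 4.02 FPKM) with Hdac8 (2.93 to 4.01 FPKM), Hdac8 with Hdac10 (2.29 to 3.11 FPKM) and Hdac10 with Hdac9 (1.67 to 2.41 FPKM). Within single libraries the order was the same in 5 of 6, and only in BHB 3 did Hdac8 stand above Hdac4. Among the genes tested, Hdac2 and Hdac1 stood at percentiles 93.2 and 92.1 of mean FPKM, and Hdac9 at percentile 11.1.

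**Figure D1:**
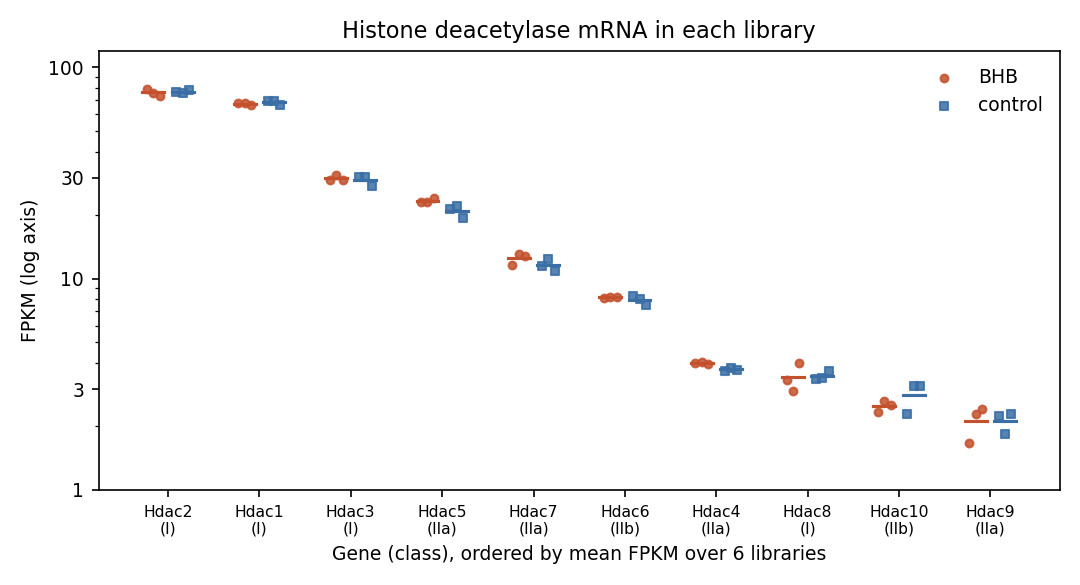
FPKM (log axis) of each histone deacetylase gene in each library, with BHB (circles) left of control (squares), horizontal lines at the group means (n = 3 each) and genes ordered by their mean over 6 libraries. Levels fall from 76.6 FPKM for Hdac2 to 2.12 FPKM for Hdac9, and the treatment groups overlap in 8 of the 10 genes. Over all genes tested, groups did not overlap in 6.43% with BHB higher and in 4.45% with BHB lower.

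The DNA before the start sites differed among the members in base composition. The promoters of the most abundant member (Hdac2), the member with the smallest p (Hdac5) and the least abundant member (Hdac9) are shown as the 250 bases before the annotated start, from RefSeq on the build GRCr8. Capitals mark the GC box GGGCGG and the CCAAT box on either strand, which are read by Sp1-family factors and NF-Y. The entries lie at chr20:42102877-42103126 (plus strand), chr10:87688055-87688304 (minus strand) and chr6:57052572-57052821 (minus strand), each printed on the strand of its gene.
Hdac2: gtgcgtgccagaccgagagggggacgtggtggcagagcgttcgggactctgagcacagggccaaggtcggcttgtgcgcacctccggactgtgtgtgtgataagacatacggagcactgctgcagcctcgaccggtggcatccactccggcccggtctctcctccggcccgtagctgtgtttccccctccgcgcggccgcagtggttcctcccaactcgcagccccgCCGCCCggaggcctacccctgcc
Hdac5: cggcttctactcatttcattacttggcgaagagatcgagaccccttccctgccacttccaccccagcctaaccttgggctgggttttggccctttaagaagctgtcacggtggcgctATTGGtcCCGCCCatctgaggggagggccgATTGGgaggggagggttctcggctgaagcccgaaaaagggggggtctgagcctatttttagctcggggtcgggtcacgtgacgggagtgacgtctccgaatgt
Hdac9: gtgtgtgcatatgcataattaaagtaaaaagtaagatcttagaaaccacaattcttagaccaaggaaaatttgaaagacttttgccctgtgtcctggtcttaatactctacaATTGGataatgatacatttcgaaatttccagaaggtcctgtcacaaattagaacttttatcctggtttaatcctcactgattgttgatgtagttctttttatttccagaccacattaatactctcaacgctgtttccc

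The Hdac2 window had 68.8% G and C and 23 CpG dinucleotides, that of Hdac5 had 58.8% and 15, and that of Hdac9 had 34.4% and 2. Hdac8, the least abundant class I member, was like Hdac9, with 38.8% and 2. The other 6 windows had 58.8% to 72.4% G and C and 13 to 23 CpG. Among them was Hdac10, with 58.8% and 13, although its mean of 2.66 FPKM was below the 3.44 FPKM of Hdac8. A relation between base composition and level was not tested. The median of 33469 RefSeq promoter windows of this length was 51.2% and 5 CpG. These windows were taken without a filter for gene type, while the members all encode proteins. A GC box stood in 7 of the 10 windows, against 30.5% of all windows, and none was in those of Hdac7, Hdac8 and Hdac9. A CCAAT box stood in 5 of 10, against 34.0% of all windows, and no GC box overlapped a CCAAT box. Each gene has a single entry in this table, and the starts used in these cells were not measured.

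Hdac1 and Hdac2, the paired catalytic subunits of the NuRD, SIN3 and CoREST complexes, held most of the family's mRNA. Hdac1 stood at 67.8, 67.6 and 66.5 FPKM in the BHB libraries, against 69.3, 69.3 and 66.5 FPKM in the control libraries. The groups overlapped, with BHB 3 and control 3 at the low end. Its means were 67.3 ± 0.716 FPKM with BHB and 68.4 ± 1.57 FPKM in controls (SD, n = 3 each), which gave a log2 fold change of -0.02 with SE 0.0401 (limma adjusted p = 0.949). The 95% interval of -0.11 to 0.07 corresponds to a difference in FPKM + 1 of between -7.64% and 4.93%.

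Hdac2 had 79.2, 76.0 and 73.3 FPKM in the BHB libraries, against 76.8, 75.8 and 78.2 FPKM in the control libraries. The BHB libraries held both the highest and the lowest value, so the control range lay inside the BHB range. Its log2 fold change of -0.02 had a 95% interval of -0.12 to 0.09 (limma adjusted p = 0.972). The ratio of Hdac2 to Hdac1, both per length, ran from 1.10 to 1.17 with BHB and from 1.09 to 1.18 in controls. The RefSeq table lists 18 pseudogenes of Hdac1 and 1 of Hdac2, and none of their symbols is a row of the deposited table. A copy listed there under another name would be missed by this match of symbols. The sources used here do not say how reads shared with such copies were assigned, so the levels of these 2 genes are uncertain to that extent.

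Hdac3, the catalytic subunit of the NCoR corepressor complex, was lower than both. It had 29.2, 31.0 and 29.3 FPKM in the BHB libraries, against 30.4, 30.2 and 27.5 FPKM in the control libraries. Control 3 was the lowest and BHB 2 the highest, and the groups overlapped. On the log2 scale BHB minus control was 0.02, with a 95% interval of -0.10 to 0.15 (limma adjusted p = 0.966).

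Hdac8, which works outside these complexes and deacetylates the cohesin subunit SMC3, was scarce and variable. It had 3.32, 2.93 and 4.01 FPKM in the BHB libraries, against 3.34, 3.40 and 3.64 FPKM in the control libraries. BHB 2 was the lowest and BHB 3 the highest of all 6, with the 3 controls between them. Its log2 fold change was -0.02 (limma adjusted p = 0.985), and its 95% interval of -0.25 to 0.21 was wider than that of Hdac4, the next gene above it in level.

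Class IIa held the member nearest to the threshold. Hdac5, a repressor of MEF2 targets that leaves the nucleus when phosphorylated, had 23.0, 23.2 and 24.0 FPKM in the BHB libraries, against 21.4, 22.0 and 19.4 FPKM in the control libraries. Every BHB library lay above every control, and control 3 was the lowest of the 6. The means were 23.4 ± 0.530 FPKM with BHB and 20.9 ± 1.38 FPKM in controls (SD, n = 3 each), so the BHB mean was 11.6% higher. On the log2 scale the difference was 0.15 (SE 0.0589, 95% interval 0.02 to 0.29). The unadjusted limma p was 0.0306 and the limma adjusted p was 0.881, over the threshold. Without control 3 the log2 value was 0.10 with an unadjusted limma p of 0.0998, and the unadjusted p was also over 0.05 without BHB 2 (0.0577), without BHB 3 (0.0926) and with the replicate number as a block (0.0576).

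Hdac4, the class IIa enzyme known as a brake on MEF2 in muscle and neurons, had 4.01, 4.02 and 3.96 FPKM in the BHB libraries, against 3.67, 3.80 and 3.71 FPKM in the control libraries. These groups did not overlap either, and both were tight. At 0.08 (SE 0.0641, 95% interval -0.07 to 0.23), its log2 fold change was not called (limma adjusted p = 0.902). The SE from limma draws on the spread of other genes of like level as well as on these 6 values. The exact two-sided permutation p of Hdac4 and of Hdac5 was 0.1, the smallest that 3 against 3 allows. Groups that did not overlap, with BHB higher, were found in 2 of 10 members and in 6.43% of all genes tested, and with BHB lower in 0 of 10 and in 4.45%.

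Hdac7, best known from blood vessels and lymphocytes, had 11.6, 13.1 and 12.8 FPKM in the BHB libraries, against 11.5, 12.4 and 10.9 FPKM in the control libraries. BHB 1 lay within the control range while BHB 2 and BHB 3 lay above it. This gave 0.10 on the log2 scale, with a 95% interval of -0.06 to 0.26 (limma adjusted p = 0.898). Hdac9, whose gene also makes a short form without the catalytic domain, had 1.67, 2.29 and 2.41 FPKM in the BHB libraries, against 2.23, 1.84 and 2.28 FPKM in the control libraries. Here BHB 1 was the lowest and BHB 3 the highest. On the log2 scale BHB minus control was -0.00197, with a 95% interval of -0.26 to 0.26 (limma adjusted p = 0.998). The RefSeq table lists 38 transcripts for Hdac9 and 1 for Hdac1, and the table of gene values does not separate transcripts.

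In class IIb, Hdac6, the cytoplasmic deacetylase of α-tubulin, had 8.15, 8.17 and 8.15 FPKM in the BHB libraries, against 8.29, 8.02 and 7.51 FPKM in the control libraries. The BHB libraries were nearly equal and lay inside the control range. Its log2 fold change of 0.04 had a 95% interval of -0.10 to 0.17 (limma adjusted p = 0.946).

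Hdac10, which deacetylates acetylated polyamines, had 2.33, 2.64 and 2.53 FPKM in the BHB libraries, against 2.29, 3.11 and 3.09 FPKM in the control libraries. Control 2 and control 3 lay above all BHB libraries and control 1 below them. At -0.12 (SE 0.103, 95% interval -0.36 to 0.11), its log2 fold change was the lowest of the family and was not called (limma adjusted p = 0.910). Leaving out a control moved it most, to -0.23 without control 1, -0.07 without control 2 and -0.07 without control 3.

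**Figure D2:**
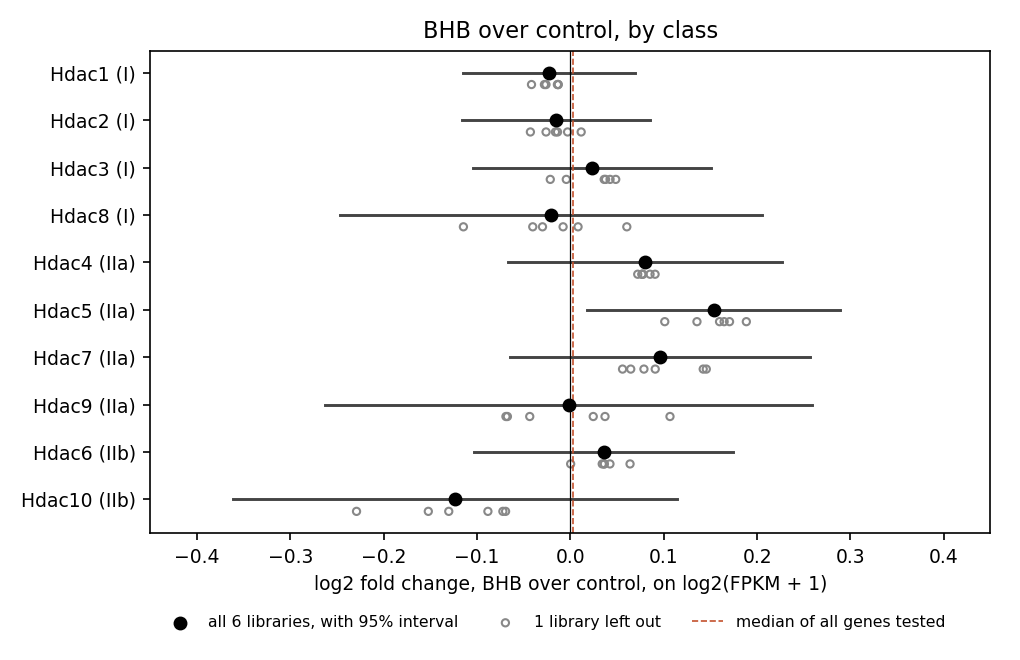
Log2 fold change, BHB over control, of each histone deacetylase gene by class, on the log2(FPKM + 1) scale, with 95% intervals from limma (n = 3 libraries each) and open circles for the value with 1 library left out. With all 6 libraries, only the interval of Hdac5 (0.02 to 0.29) leaves out 0, and the dashed line is the median of all genes tested, 0.00289.

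The intervals give, for each gene taken singly, how large a difference these libraries leave possible. Like the p-values, the intervals rest on a spread between libraries that may be only technical. Across the family they reached from -0.36 (Hdac10) to 0.29 (Hdac5). They were narrowest for the abundant Hdac1, with an SE of 0.0401, and widest for Hdac9, with an SE of 0.114, against a median SE of 0.0737 over all genes tested. The coefficient of variation over the 6 libraries was 1.84% for Hdac1 and 13.8% for Hdac9. On the log2(FPKM + 1) scale, changes of genes at a few FPKM are also understated. With a pseudocount of 0.1 the value of Hdac10 was -0.16 and that of Hdac4 was 0.10.

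Summed over the family, FPKM was 229.4 ± 2.14 with BHB and 227.3 ± 3.88 in controls (SD, n = 3 each), between 0.0627% and 0.0638% of the summed FPKM of a library. Class I held 78.0%, 76.9% and 76.3% of the family's summed FPKM in the BHB libraries, against 77.7% to 79.0% in the control libraries. Most of that was Hdac1 and Hdac2 together, at 61.6% to 63.8% with BHB and 63.1% to 65.0% in controls. The class I ranges overlapped between treatments.

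Class IIa held 17.5%, 18.4% and 19.0% in the BHB libraries, against 16.9%, 17.4% and 16.3% in the control libraries. The groups did not overlap, although the nearest libraries, BHB 1 and control 2, differed by little. With Hdac5 taken out of the family the class IIa share was 8.33% to 9.45% with BHB and 8.31% to 8.69% in controls, and the groups overlapped. Class IIb held 4.55% to 4.71% with BHB and 4.62% to 4.84% in controls. These shares are descriptions and were not tested.

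**Figure D3:**
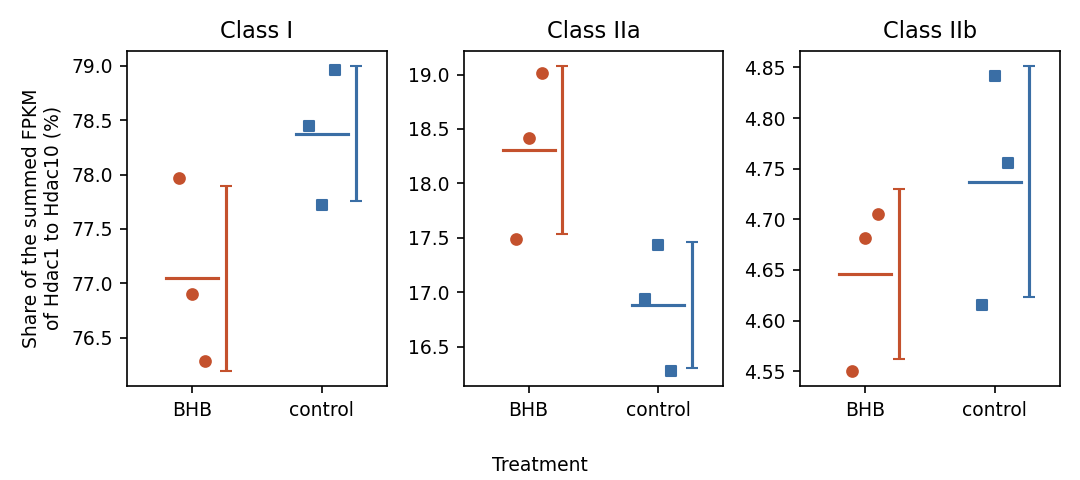
Share (%) of the summed FPKM of the 10 histone deacetylase genes held by class I, class IIa and class IIb in each library, with the group mean as a line and the SD beside it (n = 3 each), each panel on its own axis that does not start at 0. The class IIa share is 17.5% to 19.0% with BHB and 16.3% to 17.4% in controls.

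The complexes, substrates and regulators of these enzymes were described from 12 lists holding 117 genes, of which 111 were tested. Among them 0 passed, 55 had a log2 fold change above 0, and the median was -0.0027. An unadjusted p under 0.05 was found for 6 (5.41%), against 5.59% of all genes tested. The groups did not overlap with BHB higher in 7 (6.31%) and with BHB lower in 8 (7.21%), against 6.43% and 4.45% of all genes tested.

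Among the class I complexes, 4 of 12 NuRD genes lay above 0 (median log2 fold change -0.03), and 7 of 13 SIN3, 4 of 7 CoREST, 1 of 5 NCoR and 3 of 3 MiDAC genes did (medians 0.01, 0.03, -0.01 and 0.04). The scaffold gene Sin3b stood at 120.4 ± 4.24 FPKM with BHB and 111.5 ± 5.79 FPKM in controls, and Arid4b of the same complex at 7.55 ± 0.0734 FPKM with BHB and 8.18 ± 0.564 FPKM in controls (SD, n = 3 each). In NuRD, Mta1 stood at 38.6 FPKM with BHB and 36.4 FPKM in controls, and the histone chaperone Rbbp4 at 68.9 FPKM with BHB and 72.5 FPKM in controls. In CoREST, the scaffold Rcor1 stood at 15.9 FPKM with BHB and 15.0 FPKM in controls. In the NCoR complex, Tbl1x stood at 33.3 FPKM with BHB and 35.1 FPKM in controls. In MiDAC, a complex of Hdac1 and Hdac2 named for its mitotic role, Trerf1 stood at 3.23 FPKM with BHB and 2.72 FPKM in controls, and Elmsan1 at 13.2 FPKM with BHB and 12.8 FPKM in controls. None of these passed (limma adjusted p 0.881 to 0.934).

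Among partners of class IIa, 6 of 9 MEF2 and 14-3-3 genes lay above 0 (median log2 fold change 0.00239). Mef2d, a MEF2 factor of the kind that class IIa enzymes repress, stood at 5.77 ± 0.823 FPKM with BHB and 4.93 ± 0.631 FPKM in controls (SD, n = 3 each), a difference of 0.19 in log2(FPKM + 1) (limma adjusted p = 0.890). The 14-3-3 gene Ywhab stood at 118.9 ± 3.43 FPKM with BHB and 130.0 ± 4.98 FPKM in controls (SD, n = 3 each), a difference of -0.13 in log2(FPKM + 1) (unadjusted p = 0.0216, limma adjusted p = 0.881). Kinases known to phosphorylate class IIa enzymes split 5 above and 5 below 0 (median 0.00329). Mark2 had a log2 fold change of -0.09 and Prkd1 of -0.06.

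No gene of the lists for HDAC6, HDAC8 and HDAC10 passed. The HDAC6 list, of α-tubulins, the tubulin acetyltransferase and other substrates and partners, had 7 of 12 above 0 (median 0.01). Its Tuba4a, an α-tubulin, stood at 12.5 ± 0.548 FPKM with BHB and 10.6 ± 1.00 FPKM in controls (SD, n = 3 each), a difference of 0.22 in log2(FPKM + 1) (unadjusted p = 0.0178, limma adjusted p = 0.881), and the log2 fold change of the chaperone gene Hsp90aa1 was -0.08. Cohesin and its regulators, the setting of HDAC8, had 3 of 12 above 0 and a median of -0.08. Pds5b, a cohesin regulator, stood at 13.1 ± 0.420 FPKM with BHB and 16.0 ± 1.25 FPKM in controls (SD, n = 3 each), a difference of -0.26 in log2(FPKM + 1) (unadjusted p = 0.00401, limma adjusted p = 0.881). The cohesin loader gene Mau2 stood at 11.0 ± 2.81 FPKM with BHB and 7.68 ± 0.0309 FPKM in controls (SD, n = 3 each), a difference of 0.43 in log2(FPKM + 1) (unadjusted p = 0.0222, limma adjusted p = 0.881). BHB 1 and BHB 2 had 11.7 and 13.3 FPKM of Mau2, while BHB 3 had 7.86 FPKM, near the controls. Polyamine genes, the setting of HDAC10, had 5 of 10 above 0 (median 0.02). Oaz1, the antizyme that limits polyamine synthesis, stood at 181.7 ± 7.92 FPKM with BHB and 151.2 ± 23.4 FPKM in controls (SD, n = 3 each), a difference of 0.27 in log2(FPKM + 1) (unadjusted p = 0.0278, limma adjusted p = 0.881). Control 2 had 124.6 FPKM of Oaz1, below the 160.6 and 168.5 FPKM of control 1 and control 3. The polyamine oxidase gene Paox had a log2 fold change of 0.22.

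Deacetylases of the other classes, Hdac11 of class IV and the NAD-dependent sirtuins of class III, had 4 of 8 above 0 and a median of 0.00105. Hdac11 had 2.44, 2.92 and 1.80 FPKM in the BHB libraries, against 2.71, 2.81 and 2.79 FPKM in the control libraries, a log2 fold change of -0.17 that was not called (limma adjusted p = 0.898). The value of Sirt3, the main mitochondrial deacetylase, was 0.19 on the log2 scale (limma adjusted p = 0.890). Genes that deacetylase inhibitors have been reported to raise had 6 of 10 above 0 (median 0.02), and 0 passed. Klf4, a transcription factor gene, stood at 1.79 ± 0.135 FPKM with BHB and 1.41 ± 0.126 FPKM in controls (SD, n = 3 each), a difference of 0.21 in log2(FPKM + 1) (unadjusted p = 0.0358, limma adjusted p = 0.881), and the log2 fold change of Cat, the catalase gene, was -0.08.

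**Figure D4:**
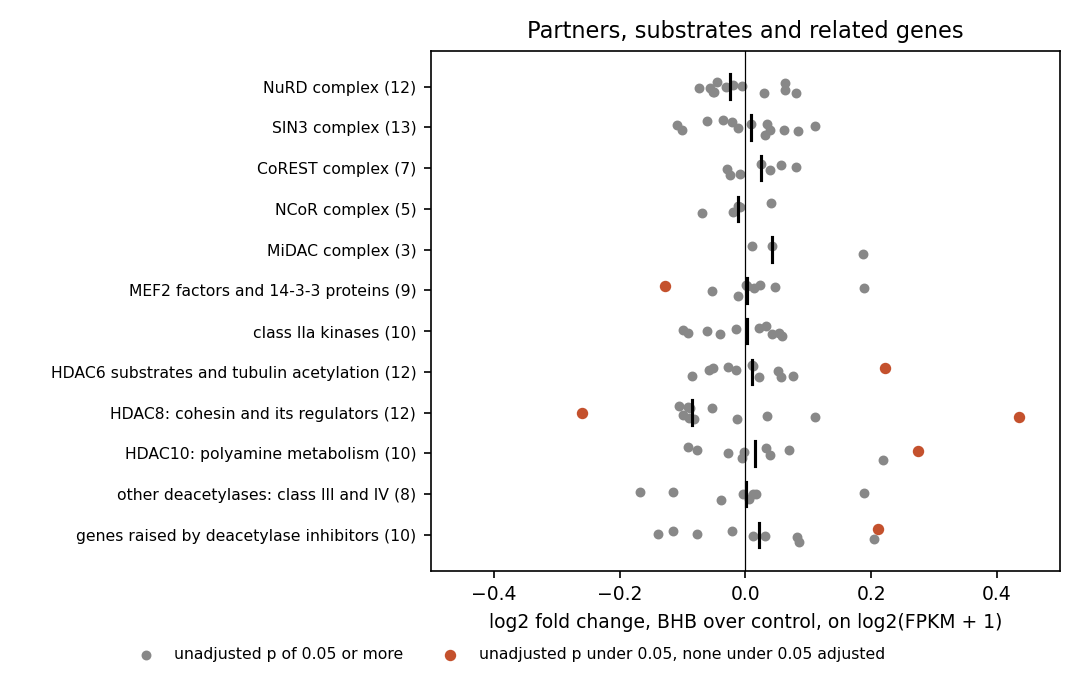
Log2 fold change, BHB over control, on the log2(FPKM + 1) scale, of each tested gene in 12 lists of complexes, substrates and regulators of histone deacetylases, with the number tested in brackets and the list median as a black bar (vertical scatter is only for legibility). The 6 genes in colour had an unadjusted p under 0.05, and none of the 111 passed after adjustment over all genes tested.

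The 6 libraries were alike, with pairwise Pearson correlations of 0.990 to 0.993 over the genes tested and 12288 to 12312 genes at 1 FPKM or more. FPKM keeps no read totals, so the depth behind each value is unknown. The value of 1 read, estimated from genes under 0.1 FPKM, lay between 0.853 and 1.01 of that in control 1, so inferred depths were not equal. Control 3 had the lowest value of 4 members (Hdac3, Hdac5, Hdac6 and Hdac7) and the highest of none. Its FPKM summed over all genes was also the lowest, at 354565 against 359357 to 367448 in the other libraries.

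All 10 astrocyte markers were tested, the most abundant being Fabp7 at 2304 FPKM with BHB and 2319 FPKM in controls. Their sum was 5119 to 5135 FPKM with BHB and 4711 to 4953 FPKM in controls, and 6 of the 10 had a log2 fold change above 0. Only 1 of them, the glutamate transporter gene Slc1a3, passed (limma adjusted p = 1.64e-05). It stood at 455.2 ± 11.6 FPKM with BHB and 202.7 ± 5.0 FPKM in controls (SD, n = 3 each). Slc1a3 is part of the sum, which was not taken without it. Fibroblast and mural cell genes were also abundant, with sums of 4624 to 5005 FPKM with BHB and 4469 to 4844 FPKM in controls. Tagln and Acta2 made up most of these sums. Tagln led at 3104 FPKM with BHB and 3030 FPKM in controls. Acta2 stood at 1334 FPKM with BHB and 1285 FPKM in controls. Sums of microglial markers were 30.9 to 32.2 FPKM with BHB and 30.1 to 33.0 FPKM in controls, led by C1qa. Sums of neuronal markers, led by Stmn2, were 85.3 to 87.0 FPKM with BHB and 86.1 to 89.0 FPKM in controls, and those of oligodendrocyte lineage markers, led by Cnp, were 93.1 to 97.0 FPKM with BHB and 90.4 to 95.9 FPKM in controls. The ependymal sum, led by Foxj1, was 31.4 to 34.0 FPKM with BHB and 34.3 to 37.5 FPKM in controls, which did not overlap. Most of it was Foxj1, at 31.1 FPKM with BHB and 33.8 FPKM in controls (limma adjusted p = 0.887). Rsph1 stood at 1.71 FPKM with BHB and 1.99 FPKM in controls. Ccdc153 went the other way, at 0.212 FPKM with BHB and 0.0718 FPKM in controls. Single genes with BHB lower and no overlap made up 4.45% of all genes tested. The endothelial sum, led by Eng, was at most 3.58 FPKM with BHB and 2.97 FPKM in controls. That of dividing cell genes, led by Pcna, was 347.9 to 357.8 FPKM with BHB and 353.0 to 369.6 FPKM in controls. Of the 6 dividing cell genes, only Pcna had a log2 fold change above 0 (0.06). No tested marker of these other cell types passed, and markers under the minimum were not tested. Among these was Mog of the oligodendrocyte lineage, at 0.389 ± 0.134 FPKM with BHB and 2.02 ± 2.99 FPKM in controls (SD, n = 3 each). Its highest library had 5.47 FPKM. Under 1 FPKM in every library were P2ry12 of microglia, Rbfox3 and Slc17a6 of neurons, Sox10 of the oligodendrocyte lineage, Dcn and Lum of fibroblasts, Tmem212 and Ccdc153 of ependymal cells, and Pecam1, Cldn5, Cdh5 and Kdr of endothelium, with Cldn5 and Tmem212 listed at 0 in all 6 libraries. The part of these cell types in the deacetylase values was not tested, and in bulk RNA fewer cells of a type and less RNA per cell cannot be told apart.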

How the data were processed

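The deposited file is one table of FPKM, made by the authors, whose 6 columns were matched to the samples by name. The submitters' processing notes name bcl2fastq 2.0, HISAT2, StringTie and DESeq2 and the build rn6, without roles or settings. For annotation and strand setting the sources used here give nothing. Per the labels' protocols, oligo-dT beads selected poly(A) RNA and an Illumina TruSeq kit, not called stranded there, made the libraries.

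FPKM cannot be tested as read counts, so limma 3.58.1 (R 4.3.3, lmFit and eBayes with trend) was run on log2(FPKM + 1) of the genes that reached 1 FPKM in 3 or more libraries, two-sided, with Benjamini-Hochberg adjustment over all 12373 genes tested. Every adjusted p is limma's. The fit was tested on simulated data. Alternatives were another pseudocount, other filters, no trend, 2 scalings, a replicate block and each library left out. Gene names, transcript numbers, pseudogenes and promoter windows come from RefSeq tables of GRCr8, used with no coordinate of the deposited data, and 17144 of the 22608 symbols matched.

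The members and lists were chosen with earlier results of these data known. In each list the 2 tested genes with the smallest p are named, with the most abundant marker of each cell type and the 3 genes most like Hdac2 and Hdac5. Some genes that this rule selects are not reported here. Of list genes, 116 of 117 were found in the table, and 5 of those were under the minimum. Slc1a3, Acta2, Mog, Rsph1 and the markers under 1 FPKM were named after their values were seen.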

Additional observations from a re-analysis of the deposited data

How the results depend on the processing

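No member passed under any of the alternatives run, with a lowest limma adjusted p of 0.685. The direction of Hdac1, Hdac4, Hdac5, Hdac6, Hdac7 and Hdac10 was the same in each, for Hdac6 only narrowly (0.000284 without control 3), and of 126 values 118 kept their direction and 8 turned, all with 1 library left out. With a library left out the log2 fold change ran from -0.0428 to 0.0116 for Hdac2, from -0.0215 to 0.0486 for Hdac3, from -0.115 to 0.0604 for Hdac8 and from -0.0690 to 0.107 for Hdac9. It ran from -0.0417 to -0.0131 for Hdac1, from 0.0721 to 0.0907 for Hdac4, from 0.101 to 0.189 for Hdac5, from 0.000284 to 0.0639 for Hdac6, from 0.0559 (without control 3) to 0.146 (without BHB 1) for Hdac7 and from -0.229 to -0.0694 for Hdac10, whose unadjusted p was 0.0333 without control 1. Hdac1 was at -0.0417 without control 3 and between -0.0139 and -0.0131 without BHB 3, control 1 or control 2, and Hdac6 at 0.0639 without control 1. Hdac2 turned without BHB 3, Hdac3 without BHB 2 or control 3, Hdac8 without BHB 2 or control 3, and Hdac9 without BHB 1, control 1 or control 3. With the minimum of 5 FPKM, Hdac4, Hdac8, Hdac9 and Hdac10 were not tested. Of all genes, 7 were called, and 4 without the eBayes trend, a drop whose cause was not tested. Deviations from the group means correlated between libraries of the same number at -0.0899, 0.164 and -0.151, so the numbers were not taken as pairs, and the replicate block, with fewer residual degrees of freedom, called 2. Leaving out a library gave 5 to 10, with 10 without control 3. The median over all genes tested moved to -0.0121 with equal sums of FPKM.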

Other observations

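The genes whose pattern over the 6 libraries was most like that of 2 members were found by Pearson correlation on the log2(FPKM + 1) scale. For Hdac2, the most abundant member, these were Hsf2 (r = 0.996), Fam179b (0.992) and Hecw2 (0.986). For Hdac5, the member with the smallest p, they were Rab3d (0.987), Mrpl37 (0.987) and Prex1 (0.986). A value over 0.9 was reached by 163 of 12372 genes for Hdac2 and by 166 for Hdac5, and the libraries and their depth are shared by all genes. The genes named were picked as the highest of these values over only 6 libraries, and the correlations were not tested. These genes gave limma adjusted p of 0.881 to 0.980 for BHB over control and did not pass.

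The table also holds Hdac1l, at 0.0127 to 0.0334 FPKM in the BHB libraries and 0.0453 to 0.0749 FPKM in the control libraries, under the minimum for testing. Values of Hdac1, Hdac2, Hdac3 and Hdac5 have at most 6 decimals and those of the other 6 members 8 or 9, and what this reflects was not tested.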
